A study of Mus musculus with 12 samples.

Results

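The comparison described here sets 4 arrays of Min6 cells kept without serum at 5% oxygen (defined conditions, DC) against 4 arrays of the same cells kept in 15% serum at 20% oxygen (classic conditions, CC). Its members are those 8 of the 12 arrays of the series, chosen by their titles, with all 35556 rows (probe sets) of the array table. Min6 is a mouse insulinoma line, derived from a beta cell tumour, that makes and secretes insulin. All cultures ran for 15 days in periods of 5 days, and all spent the first period in 15% serum at 20% oxygen. The DC cells then spent 10 days serum-free in DMEM-F12 with apo-transferrin (100 µg/mL), progesterone (20 nM), putrescine (100 µM) and selenite (30 nM), whereas the CC cells stayed in DMEM with serum and 2-mercaptoethanol. Both media held penicillin and streptomycin. The other 4 arrays (RC) came from cells that spent the middle period in the DC medium at 5% oxygen and the last back in serum at 20% oxygen. They enter the estimate of the spread between arrays, the median of all values and the mean level by which rows were chosen or classed. The DC minus CC differences do not use them. The quadruplicates came from a single experiment, so p-values cover the spread between these samples, which may be technical. Serum, oxygen, base medium, 2-mercaptoethanol and the supplements changed together, and their parts in any difference cannot be told apart.

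When oxygen is scarce, the hydroxylases that mark hypoxia-inducible factor (HIF) subunits for destruction slow down, and HIF raises the transcription of genes for glycolysis, glucose uptake, lactate export and mitochondrial removal. When cells lose the lipoprotein cholesterol that serum carries, sterol regulatory element binding proteins (SREBPs) leave the endoplasmic reticulum and raise the genes of cholesterol and fatty acid synthesis. Serum growth factors keep the ERK cascade and its feedback genes active, and serum also carries bone morphogenetic proteins, which induce the Id genes. Beta cells normally keep lactate dehydrogenase and lactate export low, and use calcium stores and a large endoplasmic reticulum for insulin secretion and synthesis.

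The sequences below show letters that these transcription factors are known to recognise in front of genes that rose. They are 150 bases immediately before a transcription start in RefSeq's annotation of mouse assembly GRCm38.p6, 5′ to 3′ on the gene's strand, and they were picked because they hold the letters searched for. In the first 3, capitals mark ACGTG or GCGTG, the core of the hypoxia response element, or their reverse complements CACGT and CACGC. The letters of ACGTG also read on the other strand wherever a C precedes it, as in CACGTG. In the fourth, from the cholesterol synthesis gene Hmgcs1, capitals mark TCACNCCAC, a form of the sterol regulatory element.
Bnip3, chr7:138909507-138909656, minus strand: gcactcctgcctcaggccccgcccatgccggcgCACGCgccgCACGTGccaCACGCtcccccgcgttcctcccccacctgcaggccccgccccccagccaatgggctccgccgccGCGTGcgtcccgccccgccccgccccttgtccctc
Ldha, chr7:46845654-46845803, plus strand: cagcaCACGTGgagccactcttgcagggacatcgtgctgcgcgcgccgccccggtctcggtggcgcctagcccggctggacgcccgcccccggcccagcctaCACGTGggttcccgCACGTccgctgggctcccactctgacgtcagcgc
Slc16a3, chr11:120948917-120949066, plus strand: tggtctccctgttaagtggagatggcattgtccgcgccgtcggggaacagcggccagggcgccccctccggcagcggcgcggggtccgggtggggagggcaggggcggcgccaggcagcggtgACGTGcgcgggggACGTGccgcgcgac
Hmgcs1, chr13:119690201-119690350, plus strand: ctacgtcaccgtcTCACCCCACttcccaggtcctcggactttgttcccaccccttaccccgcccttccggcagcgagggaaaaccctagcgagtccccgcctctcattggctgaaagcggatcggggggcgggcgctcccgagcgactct
Across windows of 300 bases (250 before to 50 after the start), ACGTG lay on either strand in 31 of 53 windows (58.5%) of the genes of 6 oxygen-related lists that rose. The share was 40.9% (27 of 66) in the members of those lists that did not pass, 28.0% in all genes that rose and 21.6% in all 19115 windows. With GCGTG counted too, the shares were 79.2%, 66.7%, 60.6% and 51.8%. All genes that fell held ACGTG in 23.3% of windows and either form in 60.4%. The sterol form lay in 1 of 21 windows (4.8%) of the sterol genes that rose and in 1.2% of all windows. The 53 windows belong to 36 genes, and a gene with several starts counts more than once. A match describes the letters only.

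A row is said to have risen or fallen when its adjusted p in limma's moderated test, two-sided and adjusted by Benjamini-Hochberg over all rows, was under 0.05. Differences are DC minus CC on the log2 scale of the deposited values, so that 1 is 2-fold, and they are followed by limma's moderated standard error. Of all rows, 823 rose (2.31%) and 1537 fell (4.32%), and 7311 had an unadjusted p under 0.05. Counted as 1 row per gene over 19938 genes, 592 genes rose (2.97%) and 1223 fell (6.13%), and these shares are the background for every gene list below. The lists were chosen with earlier results of these data known, so a share beside the background describes a list and tests nothing. Values by array are given in the order of arrays 1 to 4 of each group. Every DC array lay above every CC array in 8.66% of the genes and below every CC array in 10% of them. Among the rows called, the median difference was 0.39 for those higher and -0.48 for those lower. A difference of at least 2-fold was reached by 65 of the rows that rose and 105 of those that fell, and one of at least 4-fold by 6 and 4. Most calls lay among the brighter rows, and the background shares were not matched to the level of a list's members. When rows were cut by mean into 5 classes of equal size, from class 1, the dimmest, to class 5, the falls numbered 22, 38, 197, 455 and 825 and the rises 10, 70, 189, 263 and 291.

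**Figure D1:**
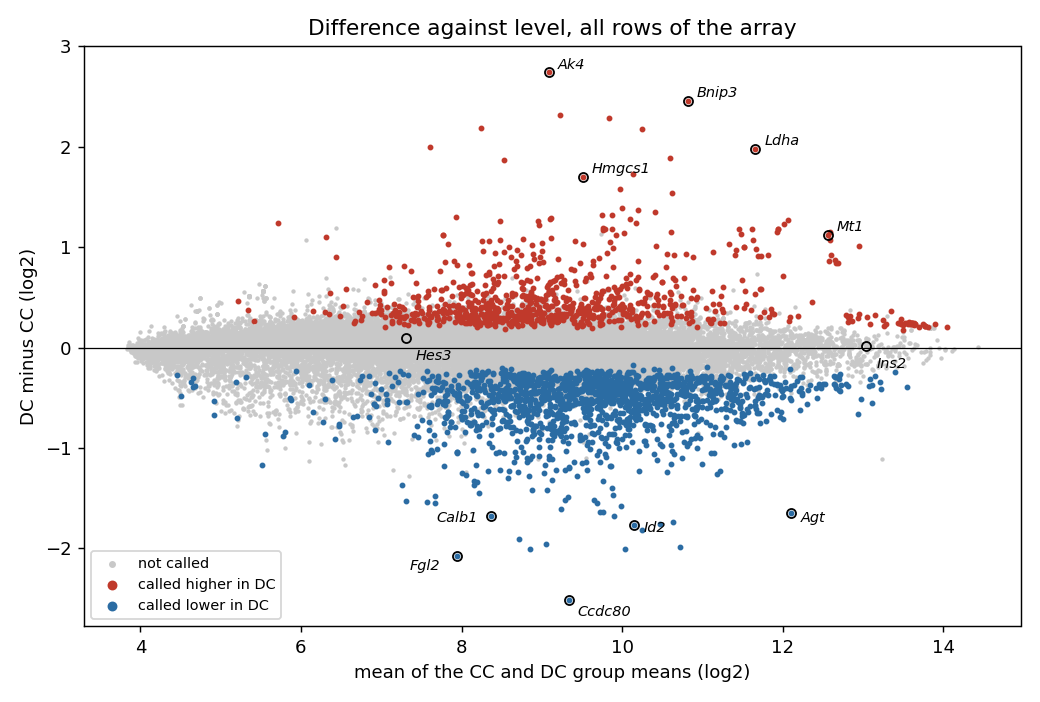
Each point is 1 row of the array, with the mean of both group means on the x axis and the DC minus CC difference on the y axis, both on the log2 scale. Red rows (823) were called higher and blue rows (1537) lower in DC, Ccdc80 lies lowest among the labelled genes called, and Ins2 and Hes3 lie near 0.

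The arrays themselves differed in ways that touch some results. Their medians lay between 7.92 and 8.05, and neither the medians nor the interquartile ranges passed a test between the 2 groups (exact two-sided permutation tests, p = 0.1714 for both, with 0.0286 the smallest that 4 against 4 allows). CC 1 and CC 2 resembled each other, as did CC 3 and CC 4, with correlations of 0.996 and 0.998. Against CC 1 and CC 2 alone, 460 rows rose and 1108 fell, and against CC 3 and CC 4 alone 352 rose and 639 fell. Leaving out 1 array gave totals of 1549 (without DC 2) to 3718 (without RC 3) in place of 2360, and 1570 without CC 1. The balance of rises and falls moved with the scaling: 502 rose and 1698 fell with each array centred on a common median, and 1203 rose and 1253 fell when the interquartile range was a covariate. What set these arrays apart was not tested.

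The highest rises were genes of low-oxygen metabolism. Ak4, a mitochondrial adenylate kinase, read 7.70, 7.79, 7.74 and 7.64 in CC and 10.60, 10.71, 11.05 and 9.49 in DC. All DC arrays lay far above all CC arrays, DC 4 the least, and the difference was 2.74 ± 0.25 (adjusted p = 3.65e-05), or 6.69-fold. A second Ak4 row differed by 0.87 ± 0.11, so the 2 rows agree in direction and not in size. Bnip3, a receptor for the removal of mitochondria, read 9.75, 9.65, 9.49 and 9.47 in CC and 11.81, 12.44, 12.50 and 11.45 in DC. Its groups were again well apart, by 2.46 ± 0.20 (adjusted p = 1.38e-05), with DC 4 and DC 1 below DC 2 and DC 3. Its relative Bnip3l rose by 0.91 ± 0.12, and Mgarp, a mitochondrial protein, by 1.999 ± 0.29 from a low level in CC (6.60 ± 0.07, SD, n = 4). Of 11 measured mitochondrial genes of low oxygen these 4 rose and none fell, against the background of 2.97% higher, and the median difference was 0.16. Prelid2, which is on no list and belongs to a family of mitochondrial lipid carriers, read 7.30, 7.08, 7.15 and 7.07 in CC and 9.58, 9.45, 9.84 and 8.48 in DC. It differed by 2.19 ± 0.23, with DC 4 well below the other DC arrays and the groups 1.18 apart.

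Many glycolytic enzymes rose. Of 18 measured, 9 rose and 1 fell, with a median difference of 0.36. Aldoc, the brain-type aldolase, read 8.73, 8.73, 8.66 and 8.63 in CC and 10.93, 11.09, 11.42 and 10.46 in DC, and rose by 2.29 ± 0.15. Ldha, which turns pyruvate into lactate, read 10.74, 10.64, 10.60 and 10.71 in CC and 12.62, 12.87, 13.03 and 12.07 in DC. In both genes every DC array was above every CC array, and Ldha rose by 1.98 ± 0.16. Of the phosphofructokinases, which commit sugar to glycolysis, Pfkl (1.58 ± 0.14) and Pfkp (1.35 ± 0.15) rose. A further form, Pfkm, differed by 0.16 from CC 1 and CC 2 and by 0.34 from CC 3 and CC 4. Downstream, Pgk1 rose by 1.18 ± 0.20, Pgam1 by 0.98 ± 0.14, Tpi1 by 0.93 ± 0.11, Aldoa by 0.84 ± 0.10 and Pkm by 0.46 ± 0.11. The groups of Pkm overlap, and its call ended without CC 3, CC 4, DC 2 or DC 3 (highest adjusted p 0.0919). Ldhb, the other lactate dehydrogenase chain, fell by 0.45 ± 0.10 (adjusted p = 0.0125). The hexokinases did not pass: Hk1 differed by 0.13 ± 0.09 (95% interval -0.06 to 0.32) and Hk2 by 0.18 ± 0.10 (-0.03 to 0.40). Hk2 read 7.04, 7.06, 7.12 and 7.20 in CC and 7.06, 7.42, 7.31 and 7.35 in DC, all below 7.99, the median of all values.

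Glucose entry, lactate export and the control of glycolysis gave 10 rises and no fall among 24 genes (41.7% against 2.97%). Pdk1, which switches off pyruvate dehydrogenase, read 8.08, 8.11, 7.96 and 8.11 in CC and 10.24, 10.75, 11.003 and 9.54 in DC, a difference of 2.32 ± 0.23. Slc16a3, the lactate exporter Mct4, read 9.53, 9.47, 9.80 and 9.80 in CC and 11.38, 11.89, 12.03 and 10.86 in DC. Its CC arrays spread over 0.33 and its DC arrays over 1.17, without overlap, and it differed by 1.89 ± 0.20 (adjusted p = 1.32e-04). Pfkfb3, which makes the activator of phosphofructokinase, read 7.57, 7.76, 7.50 and 7.56 in CC and 9.81, 9.72, 9.55 and 8.79 in DC and rose by 1.87 ± 0.18. The glucose transporter Slc2a1 read 10.86, 10.84, 10.86 and 10.86 in CC and 11.99, 12.28, 12.56 and 11.33 in DC and rose by 1.18 ± 0.20. The beta cell transporter Slc2a2 differed by 0.29 ± 0.10 and did not pass (adjusted p = 0.132). Glycogen synthase Gys1 (1.32 ± 0.24) and phosphoglucomutase Pgm1 (1.37 ± 0.18), which stand at the branch into glycogen, also rose. The other monocarboxylate transporter, Slc16a1, read 9.35, 9.18, 9.17 and 9.21 in CC and 8.95, 9.27, 9.73 and 8.74 in DC and did not pass (adjusted p = 0.836), its DC arrays lying on both sides of CC.

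The transcripts of the HIF subunits did not pass the test. Hif1a differed by 0.03 ± 0.16 (95% interval -0.31 to 0.37), Epas1, the HIF-2 alpha subunit, by 0.27 ± 0.10 (0.05 to 0.48), and Arnt, the shared partner, by -0.26 ± 0.08 (-0.44 to -0.08). Of 13 genes of HIF subunits and oxygen sensors, the prolyl hydroxylases Egln3 and Egln1 rose. Egln3, a HIF target as well as a HIF hydroxylase, read 8.01, 8.12, 8.07 and 7.998 in CC and 9.23, 9.09, 9.46 and 8.21 in DC, where 3 DC arrays stood far above every CC array and DC 4 only 0.09 above the nearest. The difference was 0.95 ± 0.20, and that of Egln1 0.65 ± 0.15. Without CC 1, CC 4 or DC 2 the call of Egln1 ended (highest adjusted p 0.0712), which left 1 of the 13.

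Among 25 oxygen-dependent demethylases and collagen hydroxylases, 4 rose and 1 fell. The histone H3K9 demethylase Kdm3a read 9.46, 9.46, 9.46 and 9.45 in CC and 10.69, 10.69, 10.79 and 10.22 in DC, and its 4 CC arrays lay close together. It rose by 1.14 ± 0.15, its relative Kdm4b by 0.74 ± 0.09, the DNA demethylase Tet2 by 0.34 ± 0.08 and the collagen prolyl hydroxylase P4ha1 by 0.52 ± 0.13, while P4ha3 fell by 0.39 ± 0.07. The count of rises was 2 without CC 1, CC 3, CC 4 or DC 2 and 8 without DC 4. The call of Tet2 ended without CC 1, CC 3, CC 4 or DC 2 (highest adjusted p 0.0647), and that of P4ha1 without any of CC 1 to CC 4 or DC 1 to DC 3 (highest 0.0923).

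Of 24 hypoxia-induced growth and stress regulators, 13 rose and none fell, with a median of 0.64 against 0.06 over all genes. Fam162a, a mitochondrial protein induced by hypoxia, read 9.37, 9.29, 9.31 and 9.14 in CC and 11.02, 11.21, 11.56 and 10.22 in DC, a rise of 1.73 ± 0.21. Ndrg1, a stress and differentiation gene, read 9.25, 9.32, 9.34 and 9.28 in CC and 10.55, 10.79, 11.02 and 10.40 in DC and rose by 1.39 ± 0.11, with little spread in either group. Adm, the vasodilator peptide adrenomedullin, read 7.25, 7.13, 7.31 and 7.42 in CC and 8.74, 8.73, 9.18 and 7.66 in DC and rose by 1.30 ± 0.24, its DC 4 array closer to CC than to the other DC arrays. The list also held rises of Wsb1 (1.24 ± 0.18), Ankrd37 (1.07 ± 0.13), the mTOR inhibitor Ddit4 (0.94 ± 0.14) and the repressor Bhlhe40 (0.95 ± 0.20). Vegfa, the angiogenic growth factor, rose by 0.35 ± 0.08 only, and without CC 1 or DC 2 its call ended (highest adjusted p 0.0523). Against CC 1 and CC 2 alone, 8 of the 13 passed.

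One DC array differed from the others across these genes. Of the 41 genes of the 6 oxygen-related lists that rose, DC 4 was the lowest DC array in 37, and DC 3 the highest in 28. Their mean rise above the CC mean was 1.15 on DC 1, 1.29 on DC 2, 1.43 on DC 3 and 0.68 on DC 4. Without DC 4, the differences were 3.06 for Ak4, 2.66 for Bnip3, 2.17 for Ldha and 1.60 for Adm. The counts of rises were then 10 of the glycolytic enzymes, 9 of the glucose and lactate genes, 5 of the mitochondrial genes and 15 of the growth and stress regulators. Genes that did not pass over all arrays showed the same order: the oxidoreductase Ero1a read 11.27, 11.31, 11.27 and 11.37 in CC and 11.91, 12.40, 12.59 and 11.28 in DC. The haem oxygenase Hmox1 read 9.38, 9.37, 9.09 and 9.10 in CC and 9.96, 10.08, 10.37 and 9.16 in DC. In both, DC 4 lay among the CC arrays and the other DC arrays above them. What made DC 4 lower was not tested.

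**Figure D2:**
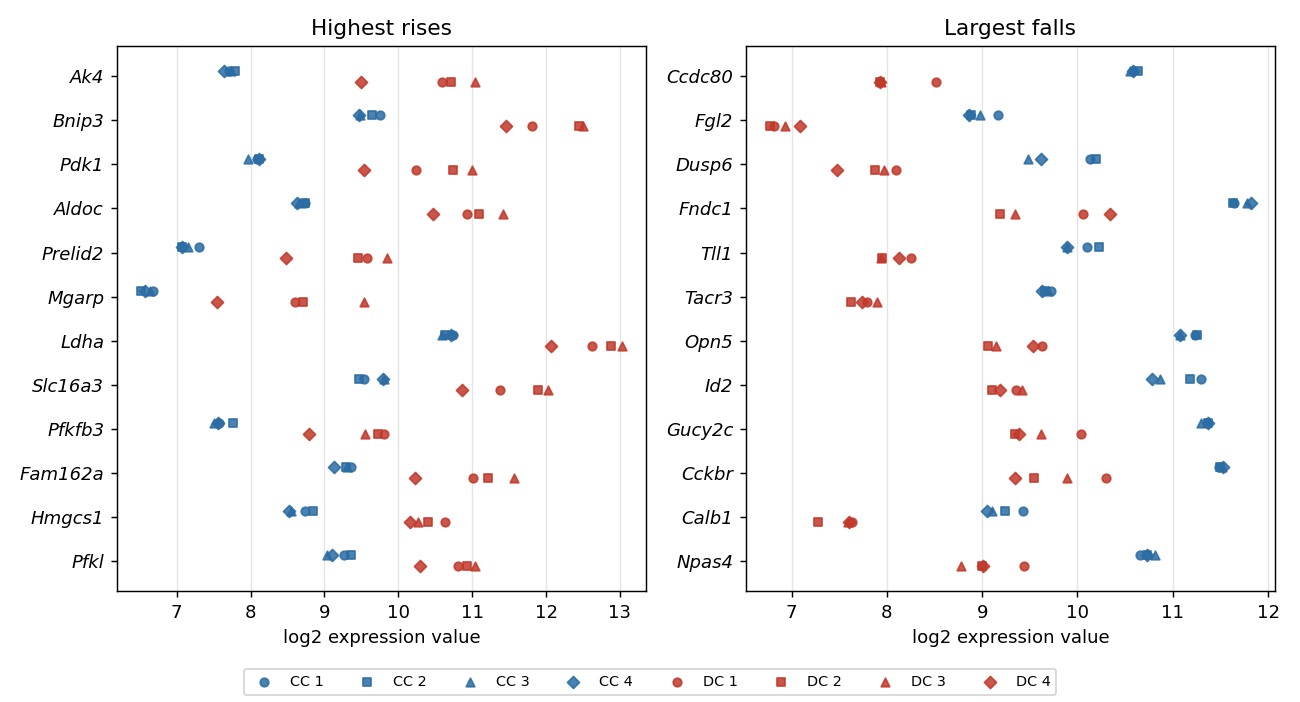
The log2 value on each array (x axis) is drawn for the 12 genes with the highest rises (left) and the 12 with the largest falls (right), with CC arrays in blue and DC arrays in red and a marker shape for each replicate. Only genes whose groups do not overlap were eligible, and DC 4 (red diamonds) is the lowest DC array in every gene on the left.

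Cholesterol synthesis rose along most of the pathway. All 8 measured genes of the mevalonate list, which ends with squalene epoxidase, rose, with a median of 0.80. Hmgcs1, which makes HMG-CoA, read 8.74, 8.84, 8.55 and 8.52 in CC and 10.63, 10.40, 10.27 and 10.16 in DC, and differed by 1.70 ± 0.10 (adjusted p = 1.79e-06), 3.26-fold. Idi1, the isopentenyl diphosphate isomerase, read 8.72, 8.55, 8.27 and 8.33 in CC and 10.08, 9.59, 9.91 and 9.44 in DC and rose by 1.29 ± 0.16, and a second row of the gene differed by 1.28 ± 0.17. The prenyl transferases Fdps (1.01 ± 0.08) and Fdft1 (0.95 ± 0.07), the mevalonate enzymes Mvd (0.64 ± 0.08), Pmvk (0.44 ± 0.10) and Mvk (0.37 ± 0.06) and squalene epoxidase, Sqle (0.56 ± 0.08), followed with smaller rises. Pmvk lost its call without CC 1, CC 3, CC 4, DC 1 or DC 2 (highest adjusted p 0.0786). Of 9 late sterol genes, 6 rose and 1 fell. Lanosterol synthase Lss read 9.56, 9.58, 9.31 and 9.40 in CC and 10.83, 10.80, 10.87 and 10.46 in DC (a rise of 1.28 ± 0.09), and Nsdhl (1.19 ± 0.11) and Tm7sf2 (1.18 ± 0.11) rose by similar amounts. Ebp, the sterol isomerase of the same pathway, fell by 0.48 ± 0.10 (adjusted p = 0.0105). The 14 sterol genes that rose stood 1.03, 0.84, 1.003 and 0.79 above the CC mean on DC 1 to DC 4, a narrower spread than in the oxygen genes, with DC 4 the lowest in 6 of 14.

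The SREBP regulators moved in both directions. Of 12 measured, 6 rose: the factors Srebf1 (0.43 ± 0.06) and Srebf2 (0.58 ± 0.06), Insig1, which holds them in the endoplasmic reticulum (0.71 ± 0.06), the sterol carrier Stard4 (0.63 ± 0.09), Mylip, which degrades lipoprotein receptors (0.62 ± 0.08), and Lpin1. Lpin1, a phosphatidate phosphatase, read 9.12, 9.31, 9.14 and 9.13 in CC and 10.46, 10.37, 10.45 and 10.10 in DC (1.17 ± 0.08). Insig2 fell by 0.53 ± 0.11 while Insig1 rose, and the HDL receptor Scarb1 fell by 0.34 ± 0.06. Of 21 fatty acid synthesis genes, 5 rose and 1 fell. Fatty acid synthase Fasn read 11.28, 11.35, 11.16 and 11.15 in CC and 12.28, 12.19, 12.11 and 12.03 in DC and rose by 0.92 ± 0.07. The desaturase Scd1 read 10.82, 10.70, 11.14 and 11.01 in CC and 11.92, 12.02, 12.30 and 11.95 in DC and rose by 1.13 ± 0.12, and the acetyl-CoA synthetase Acss2 rose by 1.06 ± 0.11. The elongase Elovl7 fell by 0.92 ± 0.13. In fatty acid oxidation 2 of 17 genes fell and none rose, and both are of the carnitine palmitoyltransferase family. Cpt1a, the gate for fatty acids into mitochondria, read 9.37, 9.44, 9.47 and 9.40 in CC and 8.87, 8.62, 8.80 and 8.69 in DC (-0.67 ± 0.08), and Cpt1c, a neuronal form in the endoplasmic reticulum, fell by 0.33 ± 0.06. Of 10 LXR and sterol efflux genes, the exporter Abca1 alone was called (0.67 ± 0.09). Off the lists, and chosen after their values were seen, the citrate carrier Slc25a1 (0.70 ± 0.09) and the acetoacetyl-CoA synthetase Aacs (0.70 ± 0.08) rose.

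**Figure D3:**
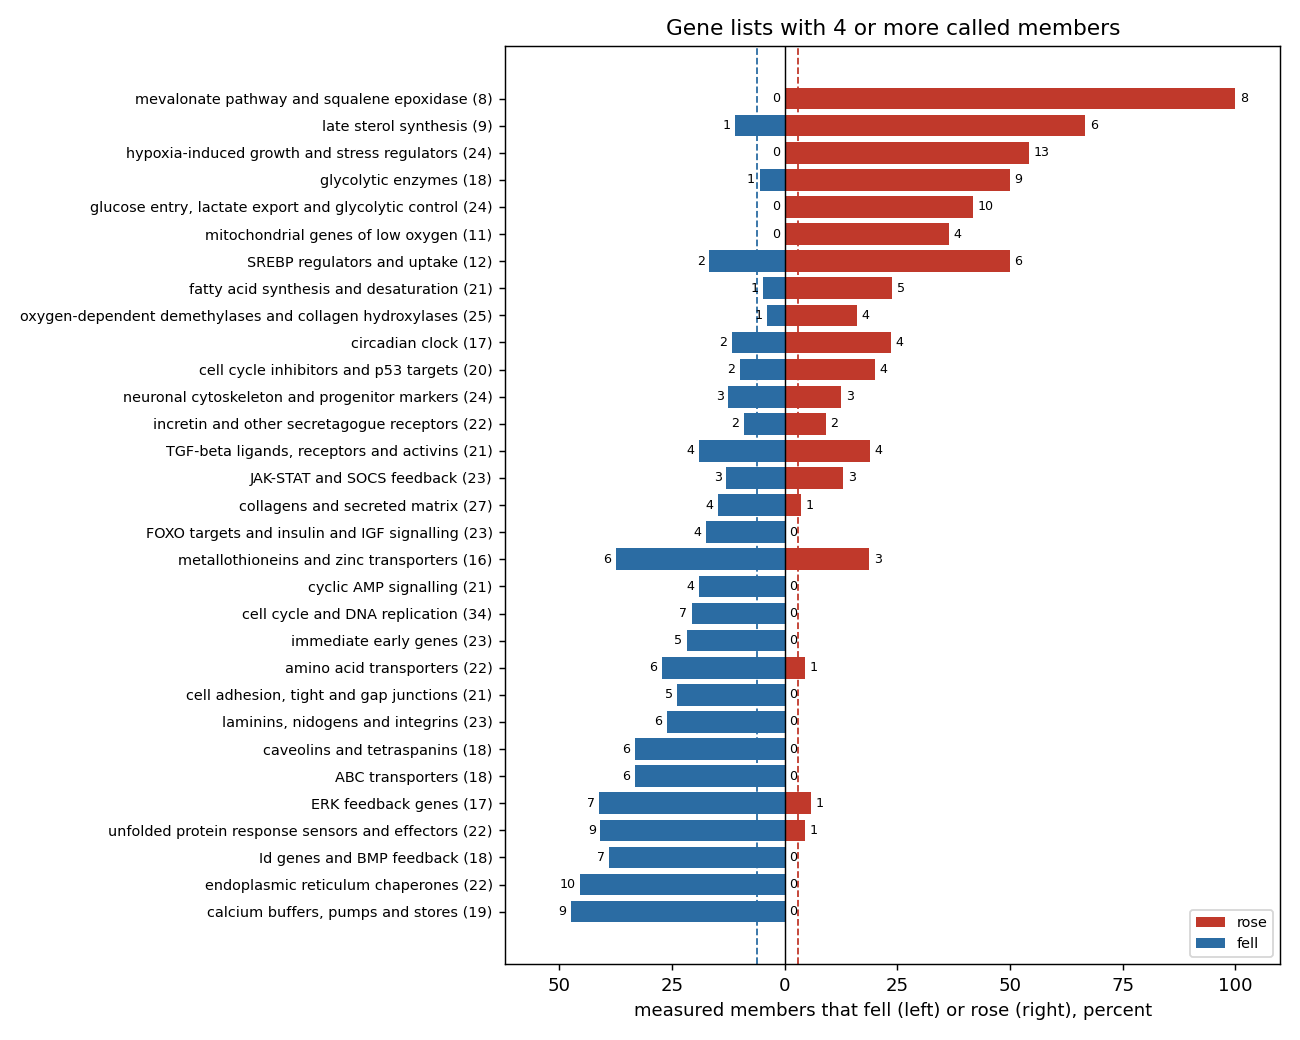
Bars give the share of each list's measured members (number in brackets) that rose (red, right) or fell (blue, left) in DC, in percent, for lists with at least 4 called members, and numbers at the bars count them. Dashed lines mark the shares over all genes, 2.97% and 6.13%; the mevalonate pathway lies at the top with 8 of 8 risen, and calcium handling at the bottom with 9 of 19 fallen.

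Genes that respond to serum growth factors fell in part. Of 17 ERK feedback genes, 7 fell and 1 rose, with a median of -0.38. Dusp6, the phosphatase that switches ERK off, read 10.14, 10.20, 9.48 and 9.61 in CC and 8.10, 7.88, 7.97 and 7.48 in DC. The CC arrays fell into pairs here, yet all lay at least 1.38 above every DC array, and the difference was -2.002 ± 0.17 (adjusted p = 2.49e-05), being -2.31 against CC 1 and CC 2 and -1.69 against CC 3 and CC 4. Etv5, an Ets factor induced by the same cascade, read 9.77, 9.82, 9.81 and 9.74 in CC and 9.04, 8.34, 8.39 and 8.12 in DC and fell by 1.32 ± 0.15. Etv4 fell by 0.83 ± 0.08, Spry4 by 0.73 ± 0.13 and Dusp5 by 0.64 ± 0.07. Ier3, another growth factor target, rose by 0.48 ± 0.12 with overlapping groups, and lost its call without any of CC 1 to CC 4 or DC 1 to DC 3 (highest adjusted p 0.0917). Against CC 3 and CC 4 alone, 4 of the ERK feedback genes fell. Of 23 immediate early genes, with a median of 0.01, 5 fell and none rose. The orphan receptor Nr4a1 read 11.19, 11.35, 11.04 and 11.12 in CC and 10.17, 10.56, 9.37 and 9.64 in DC (-1.24 ± 0.20). The others were its relatives Nr4a2 (-0.94 ± 0.11) and Nr4a3 (-0.58 ± 0.07), Jun (-0.35 ± 0.08) and Fosb (-0.52 ± 0.14). The call of Fosb ended without CC 1 to CC 4, DC 1, DC 3, DC 4 or RC 1 (highest adjusted p 0.124). The classical members Fos (-0.21 ± 0.14), Egr1 (0.21 ± 0.22) and Myc (0.01 ± 0.13) did not pass.

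Id1, Id2 and Id3, dominant-negative partners of basic helix-loop-helix factors, fell, as did a ligand that induces them. The remaining family member, Id4, differed by 0.05 from either pair of CC arrays and was not called. Of 18 Id and BMP feedback genes, with a median of -0.12, 7 fell and none rose. Id2 read 11.29, 11.18, 10.86 and 10.79 in CC and 9.36, 9.10, 9.42 and 9.19 in DC and fell by 1.77 ± 0.13. Id1 read 10.03, 10.09, 9.46 and 9.52 in CC and 8.14, 8.57, 8.38 and 8.33 in DC and fell by 1.42 ± 0.14, and Id3 fell by 0.88 ± 0.13. Bmp2, that ligand, read 8.47, 8.17, 8.67 and 8.47 in CC and 6.85, 6.76, 7.02 and 6.96 in DC, a fall of 1.55 ± 0.13 with the groups 1.15 apart. Smad7 (-0.47 ± 0.08), the antagonist Grem1 (-0.68 ± 0.14) and the receptor Bmpr2 (-0.37 ± 0.07) made up the rest. Id1, Id2 and Id3 were all higher on CC 1 and CC 2 than on CC 3 and CC 4, and against the latter pair alone they differed by -1.14, -1.56 and -0.64.

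Cell cycle genes fell in part. Of 34 cell cycle and replication genes, 7 fell and none rose, and 30 of 34 differences were negative (median -0.24). Rrm2, the ribonucleotide reductase subunit of S phase, read 10.66, 10.56, 10.16 and 10.28 in CC and 9.70, 9.23, 9.36 and 9.57 in DC and fell by 0.95 ± 0.12. Cyclin D2, Ccnd2, the main D-type cyclin of beta cells, read 11.75, 11.85, 11.30 and 11.33 in CC and 10.86, 10.66, 10.62 and 10.64 in DC and fell by 0.86 ± 0.13. The DNA precursor enzyme Tyms fell by 0.52 ± 0.09 and cyclin A2, Ccna2, by 0.45 ± 0.10, whereas Mki67, the proliferation marker, differed by -0.29 ± 0.12 and did not pass (adjusted p = 0.196). The count was 4 without CC 1, CC 2 or DC 2 and 11 without DC 4, and it was 2 against CC 3 and CC 4 alone and 4 with the interquartile range in the fit. Ccna2 lost its call without CC 1, CC 2 or DC 2 (highest adjusted p 0.0699). Of 20 cell cycle inhibitors and p53 targets, 4 rose, among them the growth arrest genes Gadd45a (0.57 ± 0.10), Ccng2 (0.54 ± 0.08) and Btg1 (0.50 ± 0.10), and 2 fell, Mdm2 (-0.53 ± 0.07) and Ccng1 (-0.61 ± 0.12), a count that was 4 without RC 3. In insulin and IGF signalling, 4 of 23 genes fell. The IGF binding protein Igfbp4 read 9.90, 9.89, 9.71 and 9.71 in CC and 8.81, 8.81, 8.88 and 8.92 in DC (-0.95 ± 0.08). The others were the receptor Igf1r (-0.65 ± 0.14), Irs1 (-0.39 ± 0.07) and the adaptor Grb14 (-0.35 ± 0.08), the last losing its call without CC 1, CC 2, DC 2 or DC 4 (highest adjusted p 0.0739). The FOXO factor Foxo1 (0.14 ± 0.08) and Irs2 (-0.09 ± 0.06) did not pass. Of 23 actin cytoskeleton genes of the SRF type, Vcl (-0.57 ± 0.09) and Tpm1 (-0.55 ± 0.11) fell and the coactivator Mrtfb (0.39 ± 0.05) rose.

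Nrg1, Hbegf, Met and Fgfr2 lie outside these lists and were chosen after their falls were seen. Nrg1, a ligand of ErbB receptors, read 10.72, 10.75, 10.80 and 10.83 in CC and 9.41, 9.05, 9.04 and 9.28 in DC, a fall of 1.58 ± 0.08, and Hbegf, a ligand of the EGF receptor, fell by 0.74 ± 0.09. The hepatocyte growth factor receptor Met read 9.65, 9.66, 9.56 and 9.62 in CC and 8.69, 8.27, 8.50 and 8.36 in DC and fell by 1.17 ± 0.13, and the FGF receptor Fgfr2 fell by 0.73 ± 0.09. In all 4 the groups were apart.

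The metallothioneins, which bind zinc and copper, rose from an already bright level. Mt1 read 12.08, 12.09, 11.96 and 11.89 in CC and 13.17, 13.13, 13.17 and 13.03 in DC, a rise of 1.12 ± 0.06. Mt2 read 12.47, 12.52, 12.43 and 12.35 in CC and 13.50, 13.44, 13.47 and 13.40 in DC, a rise of 1.01 ± 0.07, and neither gene's groups overlapped. Of the 16 genes in the list with the zinc transporters, 3 rose and 6 fell. The falls were importers and exporters, among them Slc39a10 (-0.60 ± 0.12), Slc39a1 (-0.51 ± 0.09), Slc30a7 (-0.47 ± 0.09) and Slc30a5 (-0.48 ± 0.13), the last losing its call without CC 1 to CC 4, DC 1, DC 2, DC 4, RC 1 or RC 2 (highest adjusted p 0.132). The remaining rise was Slc30a8, the insulin granule zinc transporter, at 0.31 ± 0.08, whose call ended without any of CC 1 to CC 4, DC 2 to DC 4, RC 1 or RC 2 (highest adjusted p 0.133). Against CC 1 and CC 2 alone 3 of the 6 falls passed, and against CC 3 and CC 4 alone 1.

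Most members of the iron, selenoprotein, polyamine, antioxidant and steroid (with aldo-keto reductase) lists did not pass. Falls made up 11.1% of the iron, 8.7% of the selenoprotein, 16.7% of the polyamine and 6.2% of the steroid list, against 6.13%. Rises made up 12.5% of the steroid list, against 2.97%, and no gene of the iron, selenoprotein or polyamine list rose. The antioxidant list gave 5.0% each way. Of 18 iron genes, the iron exporter ferroportin, Slc40a1, read 8.91, 8.98, 8.70 and 8.77 in CC and 7.25, 7.43, 7.55 and 7.64 in DC and fell by 1.37 ± 0.09, and the importer Slc11a2 fell by 0.42 ± 0.08. The transferrin receptor Tfrc (-0.14 ± 0.13, 95% interval -0.42 to 0.14) and ferritin Fth1 (0.18 ± 0.09, -0.02 to 0.37) did not pass. Of 23 selenoprotein genes, Selenop, the selenium carrier, fell by 0.70 ± 0.10 and the thioredoxin reductase Txnrd1 by 0.33 ± 0.08, the latter losing its call without CC 1, CC 2, DC 2 or DC 4 (highest adjusted p 0.0896). The glutathione peroxidases Gpx1 (-0.01 ± 0.13) and Gpx4 (0.23 ± 0.08) did not pass. Of 12 polyamine genes, ornithine decarboxylase Odc1, which makes putrescine, fell by 0.60 ± 0.12 and the polyamine transporter Atp13a3 by 0.69 ± 0.09. Of 16 steroid receptors and aldo-keto reductases, the oestrogen receptor Esr1 (7.42, 7.66, 7.50 and 7.70 in CC and 8.43, 8.25, 8.16 and 8.05 in DC, 0.65 ± 0.10) and Akr1c19 (0.62 ± 0.13) rose and Hsd17b12 fell by 0.90 ± 0.11. Akr1c18, the enzyme that degrades progesterone, differed by -0.59 ± 0.19 without passing (adjusted p = 0.0962). Txnip, the thioredoxin inhibitor that glucose induces in beta cells, read 10.09, 10.13, 9.95 and 10.02 in CC and 8.74, 8.09, 8.41 and 8.50 in DC and fell by 1.61 ± 0.12. Nqo1, an NRF2 target, rose by 0.65 ± 0.14, and these were the 2 calls among 20 antioxidant genes. Without CC 4 the call of Nqo1 ended (adjusted p 0.0511).

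The insulin gene Ins2 read 13.07, 12.98, 13.04 and 13.05 in CC and 13.02, 13.01, 13.06 and 13.10 in DC and did not pass (0.01 ± 0.05, 95% interval -0.10 to 0.13). Hes3, the repressor named in the series title, read 7.29, 7.09, 7.33 and 7.36 in CC and 7.17, 7.47, 7.30 and 7.50 in DC, with overlapping groups and a difference of 0.09 ± 0.10 (-0.12 to 0.31). The group means of Hes3, 7.27 in CC and 7.36 in DC, lay below the median of all values, and signal limits what such a dim row can show. Of 11 measured beta cell markers, 10 read above 7.99, the median of all values, in CC and in DC alike, and Slc30a8 was the 1 that was called. Among 13 islet hormone genes, somatostatin, Sst, read 11.57, 11.73, 12.003 and 11.92 in CC and 10.54, 9.95, 10.29 and 11.42 in DC. It fell by 1.26 ± 0.24 (adjusted p = 0.0066), with DC 4 nearest to CC and a difference of -1.55 without it. In a bulk sample, fewer cells that make somatostatin and less of its RNA per cell cannot be told apart. Cholecystokinin, Cck, read 13.76, 13.72, 13.74 and 13.79 in CC and 13.22, 13.31, 13.45 and 13.44 in DC and fell by 0.40 ± 0.06. Neuropeptide Y, Npy, rose by 0.18 ± 0.05, a call that ended without any array but RC 3 (highest adjusted p 0.131). Glucagon, Gcg, read 12.41 ± 0.07 in CC and 12.24 ± 0.19 in DC (SD, n = 4) and did not pass (-0.17 ± 0.09).

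Most transcription factors of the beta cell did not pass the test. Of 21, Pax6 rose (11.42, 11.46, 11.38 and 11.31 in CC and 11.93, 11.90, 11.94 and 11.92 in DC), by 0.53 ± 0.05 and with the 4 DC arrays within 0.04 of each other. Nkx2-2 rose by 0.29 ± 0.07, a call that ended without CC 1, CC 4 or DC 4 (highest adjusted p 0.0703). Glis3, a regulator of insulin transcription, read 10.35, 10.66, 10.52 and 10.50 in CC and 9.97, 9.71, 9.63 and 9.89 in DC and fell by 0.71 ± 0.08. Pdx1 (-0.10 ± 0.08), Mafa (0.28 ± 0.09), Nkx6-1 (0.10 ± 0.07) and Neurod1 (-0.03 ± 0.12) did not pass. Of 17 genes that beta cells keep low, Ldha and Dapk1 (0.33 ± 0.05) rose and Igfbp4 fell. In the granule lists, Chgb fell by 0.29 ± 0.06 and Slc30a8 rose, as given above, out of 16 granin and processing genes, shares of 6.2% each. Among 19 exocytosis genes the granule tether Sytl4 read 9.24, 9.39, 9.15 and 9.14 in CC and 9.89, 9.77, 10.10 and 10.07 in DC and rose by 0.73 ± 0.08 while the synaptotagmins Syt4 (-0.42 ± 0.09) and Syt5 (-0.41 ± 0.09) fell. The calls of Chgb (without CC 4 or DC 2, highest adjusted p 0.0541) and Syt5 (without CC 3, 0.0511) were not kept. Sv2b, a synaptic vesicle protein on no list and chosen after its values were seen, read 9.74, 9.83, 9.95 and 9.90 in CC and 11.25, 11.37, 11.58 and 11.36 in DC, a rise of 1.54 ± 0.08 (adjusted p = 9.00e-07).

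Receptors for hormones and transmitters changed one by one. Of 22 in the list, the GIP receptor Gipr, an incretin receptor, read 9.69, 9.74, 9.83 and 9.80 in CC and 10.61, 10.62, 10.78 and 10.51 in DC and rose by 0.86 ± 0.08, and the GLP-1 receptor Glp1r did not pass (0.16 ± 0.09). The neurokinin receptor Tacr3 read 9.72, 9.66, 9.69 and 9.63 in CC and 7.79, 7.63, 7.90 and 7.74 in DC. Its arrays spread over 0.09 in CC and 0.27 in DC, and with a fall of 1.91 ± 0.07 it had the lowest adjusted p of all rows, 1.07e-07. The somatostatin receptor Sstr3 rose by 0.29 ± 0.07, until CC 1 or CC 4 was left out (highest adjusted p 0.0642). The CCK-A receptor Cckar fell by 0.35 ± 0.08, until any of CC 1 to CC 3 or DC 1 to DC 3 was left out (0.0899). Its relative Cckbr, off the list, read 11.48, 11.50, 11.51 and 11.53 in CC and 10.29, 9.54, 9.89 and 9.35 in DC and fell by 1.74 ± 0.16. Other large falls were those of the guanylin receptor Gucy2c, the opsin Opn5 and the activity-induced factor Npas4. Gucy2c read 11.36, 11.37, 11.30 and 11.37 in CC and 10.04, 9.34, 9.61 and 9.38 in DC (-1.75 ± 0.13). Opn5 read 11.23, 11.26, 11.08 and 11.08 in CC and 9.63, 9.06, 9.15 and 9.54 in DC (-1.82 ± 0.13). Npas4 read 10.65, 10.73, 10.81 and 10.73 in CC and 9.44, 9.0, 8.77 and 9.01 in DC (-1.67 ± 0.11). The rule that picked these 3 genes required groups that do not overlap. Off the list, and chosen after their values were seen, these genes also fell: the GABA receptor subunits Gabra3 (-0.89 ± 0.11), Gabra4 (-0.89 ± 0.10) and Gabbr2 (-0.75 ± 0.08), the nicotinic subunit Chrna7 (-0.80 ± 0.08), the cannabinoid receptor Cnr1 (-0.76 ± 0.09) and the opioid precursor Penk (-0.89 ± 0.10).

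Calcium handling was among the lists with most falls. Of 19 measured genes, 9 fell and none rose (47.4% against 6.13%), with a median of -0.34. Calb1, the calcium buffer calbindin, read 9.43, 9.24, 9.10 and 9.05 in CC and 7.63, 7.28, 7.59 and 7.60 in DC and fell by 1.68 ± 0.13 (adjusted p = 1.15e-05). The ryanodine receptor Ryr2, a release channel of the stores, read 11.23, 11.46, 11.38 and 11.41 in CC and 10.92, 10.59, 10.34 and 10.16 in DC, a fall of 0.87 ± 0.14, and the IP3 receptor Itpr3 fell by 0.55 ± 0.06. The store-operated entry pathway fell at the channel Orai2 (11.04, 11.01, 10.99 and 10.97 in CC and 10.24, 10.19, 10.19 and 10.40 in DC, -0.75 ± 0.07) and at both store sensors, Stim1 (-0.56 ± 0.08) and Stim2 (-0.35 ± 0.08). Export fell at the plasma membrane pump Atp2b1 (-0.62 ± 0.06) and the exchanger Slc8a1 (-0.58 ± 0.08), and the store pump Atp2a3 fell by 0.34 ± 0.08 while Atp2a2 did not pass (0.12 ± 0.09). The calls of Stim2 (without CC 3 or DC 2, highest adjusted p 0.0556) and Atp2a3 (without CC 2 to CC 4 or DC 2, 0.0795) were not kept. The mean of the 9 falls was similar on all DC arrays, at -0.66, -0.77, -0.66 and -0.71 on DC 1 to DC 4. Single genes varied more: Ryr2 was lowest on DC 4. Atp2a3 was highest there, reading 11.43, 11.55, 11.66 and 11.82 on DC 1 to DC 4. In contrast, no gene of 19 ion channels rose and 2 fell, Cacna1a (-0.34 ± 0.06) and Scn3a (-0.40 ± 0.11), and the KATP channel genes Kcnj11 (0.03 ± 0.05) and Abcc8 (-0.05 ± 0.05) did not pass. Scn3a lost its call without CC 1 to CC 4, DC 2 to DC 4, RC 1 or RC 2 (highest adjusted p 0.118). The lowest difference among the ion channels was -1.11, in a gene that did not pass, and their median was 0.03. Of 21 cyclic AMP genes, 4 fell: the adenylyl cyclases Adcy9 (10.83, 10.89, 10.82 and 10.91 in CC and 10.11, 10.0, 9.98 and 10.32 in DC, -0.76 ± 0.09) and Adcy6 (-0.28 ± 0.06), the kinase subunit Prkar1a (-0.40 ± 0.09) and the repressor Crem (-0.58 ± 0.13). Crem lost its call without CC 1, CC 2 or DC 2 to DC 4 (highest adjusted p 0.0622) and Prkar1a without CC 1 (0.0559), so that 2 were left without CC 1.

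**Figure D4:**
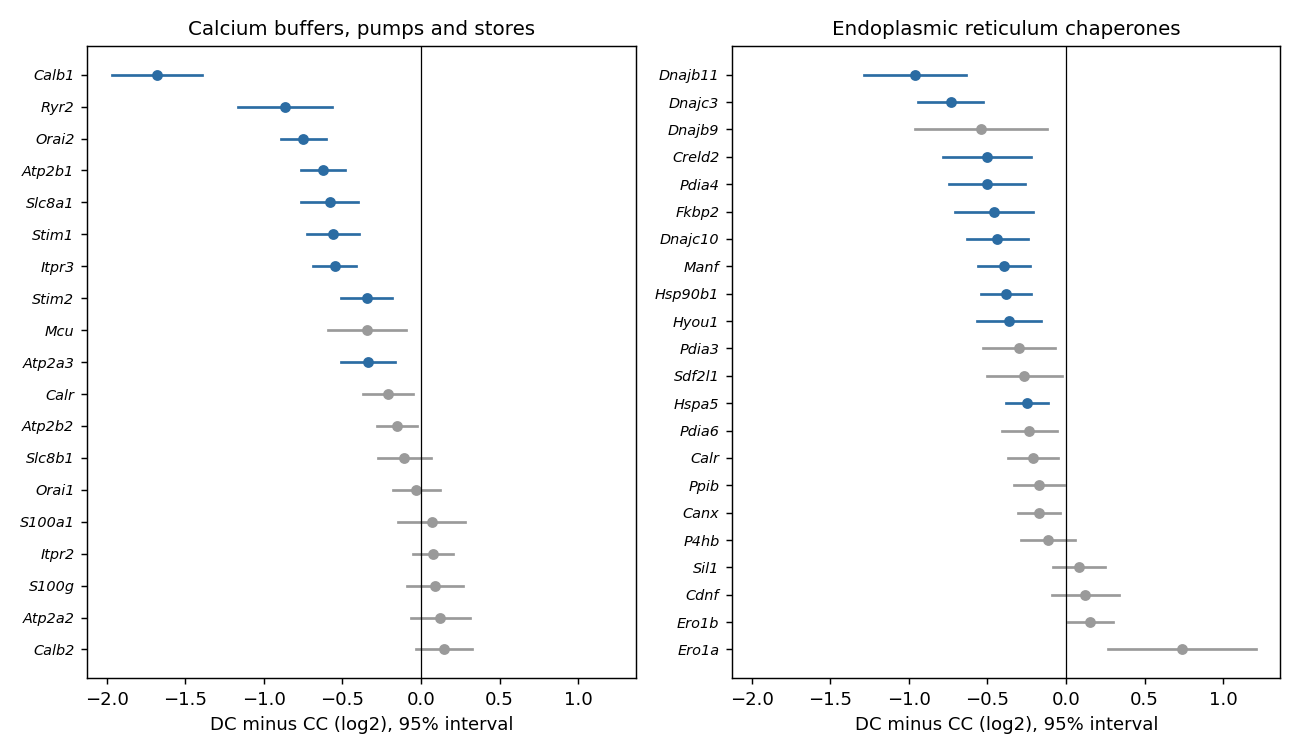
Points are DC minus CC differences (log2) with 95% intervals for the 19 calcium genes (left) and the 22 endoplasmic reticulum chaperones (right), blue where the gene fell and grey where it did not pass. Calb1 lies lowest at -1.68, and of all 41 entries none was called higher.

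The endoplasmic reticulum list came next. Of 22 chaperones and folding enzymes, 10 fell and none rose, with 18 of 22 differences below 0 and a median of -0.28. Dnajb11, a partner of the chaperone BiP, read 10.89, 10.97, 11.02 and 10.94 in CC and 10.51, 9.62, 9.97 and 9.88 in DC and fell by 0.96 ± 0.15, and Dnajc3 fell by 0.73 ± 0.10. BiP itself, Hspa5, read 13.53, 13.51, 13.50 and 13.55 in CC and 13.40, 13.17, 13.31 and 13.23 in DC, a fall of only 0.25 ± 0.06. That call ended without CC 1 to CC 4, DC 2 to DC 4 or RC 1 (highest adjusted p 0.111). Hsp90b1 (-0.38 ± 0.07) and Manf (-0.40 ± 0.08) fell by similar amounts. Pdia4 (-0.50 ± 0.11) and Creld2 (-0.50 ± 0.13) lost their calls, the first without CC 1 or DC 2 (highest adjusted p 0.0591), the second without CC 1 to CC 4, DC 2 to DC 4, RC 1 or RC 2 (0.117). Ero1a moved the other way without passing (0.74 ± 0.22). The count was 5 without CC 1 or DC 2, 6 without CC 2, CC 3 or DC 4, and 6 when the interquartile range was a covariate, while array weights gave 17. The 10 genes stood at -0.26, -0.62, -0.46 and -0.65 from the CC mean on DC 1 to DC 4.

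Of 22 sensors and effectors of the unfolded protein response, which adjusts that folding capacity, 9 fell and 1 rose, with a median of -0.24. Derl3, a component of the degradation of misfolded proteins, read 10.87, 10.65, 11.13 and 11.05 in CC and 10.66, 9.34, 9.72 and 9.74 in DC, so that DC 1 lay level with CC 2 while the other DC arrays lay well below all of CC, and the difference was -1.06 ± 0.21. Xbp1, the transcription factor that drives these genes, read 11.93, 11.84, 11.82 and 11.83 in CC and 11.46, 11.47, 11.59 and 11.26 in DC, a fall of 0.41 ± 0.07, and Edem1 (-0.50 ± 0.08), Syvn1 (-0.47 ± 0.10) and Creb3l2 (-0.49 ± 0.10) fell. Ddit3, a gene of the death branch, rose by 0.41 ± 0.11, a call that held only without DC 4 or RC 3 among the arrays left out (highest adjusted p otherwise 0.139), and Atf4 (0.05 ± 0.10) and Trib3 (0.42 ± 0.12) did not pass. The count of falls was 5 without CC 1. Off the lists, and chosen after their values were seen, 3 enzymes of N-glycan assembly and trimming were among the falls: the mannosidases Man2a1 (10.21, 10.18, 10.15 and 10.12 in CC and 9.07, 8.71, 9.04 and 8.98 in DC, -1.22 ± 0.10) and Man1a (-1.06 ± 0.17) and the glucosyltransferase Alg8 (-0.75 ± 0.11).

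**Figure D5:**
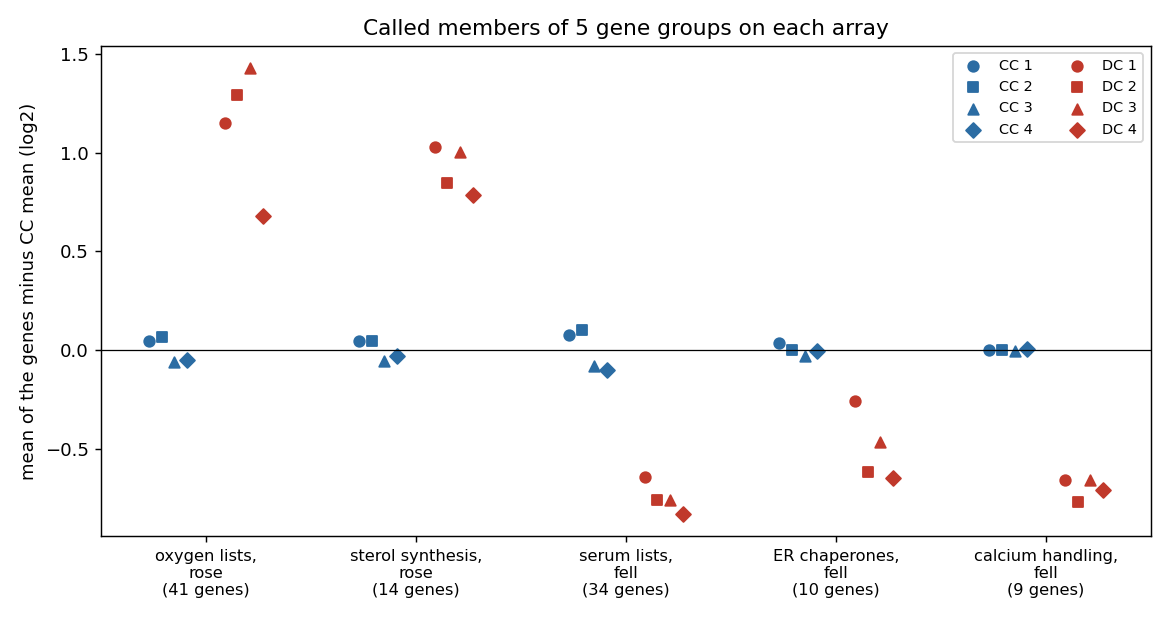
Each point is the mean, on 1 array, of the called genes of a group minus their CC mean (log2, y axis), with CC arrays in blue and DC arrays in red. DC 4 lies at 0.68 against 1.15 to 1.43 for the other DC arrays in the oxygen genes, DC 1 at -0.26 against -0.46 to -0.65 in the chaperones, and the calcium genes lie within -0.77 to -0.66.

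Single secreted and matrix proteins fell by large amounts. The largest fall among called rows was that of Ccdc80, a matrix protein, which read 10.59, 10.64, 10.55 and 10.59 in CC and 8.52, 7.92, 7.94 and 7.93 in DC and fell by 2.51 ± 0.12 (adjusted p = 7.32e-07), or 5.71-fold. Fndc1, a fibronectin-domain protein, read 11.65, 11.63, 11.78 and 11.82 in CC and 10.05, 9.19, 9.35 and 10.34 in DC (-1.99 ± 0.21). The matrix protease Tll1 read 10.10, 10.22, 9.89 and 9.89 in CC and 8.25, 7.95, 7.94 and 8.13 in DC (-1.96 ± 0.11). Tenascin, Tnc, read 9.06, 8.96, 8.91 and 8.83 in CC and 7.58, 7.52, 7.19 and 7.68 in DC (-1.45 ± 0.13). These 4 fell among 27 collagens and matrix genes, and fibronectin, Fn1, rose by 0.41 ± 0.08 from a low level (7.25 in CC and 7.66 in DC). The list as a whole leaned the other way, with 18 of 27 differences above 0 and a median of 0.15. Fgl2, a fibrinogen-like protein on no list, read 9.17, 8.88, 8.98 and 8.87 in CC and 6.82, 6.77, 6.93 and 7.08 in DC and fell by 2.07 ± 0.10, 4.21-fold. Of 23 laminin, nidogen and integrin genes, with a median of 0.12, 6 fell and none rose, among the falls Lamc1 (10.19, 10.21, 10.14 and 10.13 in CC and 9.66, 9.28, 9.50 and 9.42 in DC, -0.70 ± 0.09), Itga6 (-0.46 ± 0.08) and Lama5 (-0.38 ± 0.07). Itgb5 (-0.42 ± 0.11) was the sixth, its call ending without CC 1 to CC 4, DC 1, DC 2, DC 4, RC 1 or RC 2 (highest adjusted p 0.104). Against CC 1 and CC 2 alone 3 of the list fell, against CC 3 and CC 4 alone 2. The angiotensin precursor Agt (12.86, 12.84, 12.99 and 13.03 in CC and 11.21, 11.27, 11.64 and 11.02 in DC, -1.64 ± 0.12) and the extracellular superoxide dismutase Sod3 (10.02, 9.97, 10.13 and 10.07 in CC and 8.88, 8.35, 8.59 and 8.30 in DC, -1.52 ± 0.11) were large falls chosen after their values were seen.

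At the membrane, 6 of 18 caveolin and tetraspanin genes fell and none rose, with a median of -0.21. Cav1, the coat protein of caveolae, read 9.23, 9.11, 9.24 and 9.24 in CC and 8.20, 7.87, 7.87 and 7.95 in DC and fell by 1.23 ± 0.08. Its partner Cav2, the neighbouring gene, read 9.54, 9.49, 9.29 and 9.31 in CC and 8.69, 8.07, 8.39 and 8.03 in DC and fell by 1.11 ± 0.14. The tetraspanins Cd9 (-0.81 ± 0.10) and Cd151 (-0.77 ± 0.13) fell with them. Of 18 ABC transporters (median -0.07) 6 fell, led by the phospholipid exporter Abcb4 (10.79, 10.82, 10.72 and 10.79 in CC and 9.86, 9.76, 9.87 and 9.77 in DC, -0.97 ± 0.06) and the drug exporter Abcb1b (-0.77 ± 0.12). Of 21 adhesion and junction genes (median 0.09) 5 fell, led by Nectin3 (-0.91 ± 0.11) and by Gjd2. Gjd2, the gap junction protein connexin 36, which couples beta cells, read 10.996, 10.98, 10.996 and 10.93 in CC and 10.22, 10.11, 10.32 and 10.12 in DC (-0.79 ± 0.07). N-cadherin, Cdh2 (-0.34 ± 0.08), lost its call without CC 3, CC 4, DC 2 or DC 4 (highest adjusted p 0.0731). Of 22 amino acid transporters (median -0.18) 6 fell, among them Slc7a6 (10.96, 10.89, 11.12 and 11.13 in CC and 10.31, 10.15, 10.26 and 10.40 in DC, -0.74 ± 0.08), the glutamine carrier Slc1a5 (-0.60 ± 0.11) and Slc7a1 (-0.52 ± 0.08), while the arginine carrier Slc7a2 rose by 0.54 ± 0.11. That count of falls was 10 with centred arrays and 3 against either pair of CC arrays alone. Of 19 MHC and interferon genes, Tap1 (-0.29 ± 0.07) and Usp18 (-0.29 ± 0.07) fell. Neither kept its call without CC 1, CC 2, DC 2 or DC 3, nor did Tap1 without CC 3 or CC 4 (highest adjusted p 0.0853 and 0.0947).

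Signalling families split. Of 21 TGF-beta and activin genes 4 rose and 4 fell. Inhba, the activin A subunit, read 10.54, 10.60, 10.55 and 10.48 in CC and 9.17, 8.90, 8.89 and 8.65 in DC and fell by 1.64 ± 0.09, whereas its co-subunit Inha rose by 0.47 ± 0.10 with overlapping groups. Among the ligands Tgfb1 (-0.55 ± 0.08) and Tgfb3 (-0.64 ± 0.14) fell and Tgfb2 (7.70, 7.71, 7.76 and 7.82 in CC and 8.73, 8.42, 8.68 and 8.13 in DC, 0.74 ± 0.11) rose. The receptor Acvr1c, Alk7, read 8.74, 8.70, 8.31 and 8.32 in CC and 9.40, 9.45, 9.71 and 9.39 in DC and rose by 0.97 ± 0.13. Wnt5a, a ligand of the non-canonical pathway, read 9.58, 9.60, 9.56 and 9.61 in CC and 8.75, 7.94, 8.28 and 7.69 in DC and fell by 1.42 ± 0.17, the 1 call among 22 Wnt and Hippo genes. Angpt2, a ligand of the Tie2 receptor, read 8.97, 8.98, 8.54 and 8.57 in CC and 7.78, 7.65, 7.25 and 7.70 in DC and fell by 1.17 ± 0.13, while Vegfb rose by 0.47 ± 0.09. Of 25 Hes, Hey and Notch genes, the ligand Dll1 rose by 0.43 ± 0.08 and the glycosyltransferase Rfng fell by 0.37 ± 0.07, and Hes1 did not pass (-0.21 ± 0.07). In the JAK-STAT list 3 of 23 rose, Bcl6 (0.53 ± 0.08), Stat5a (0.32 ± 0.07) and Stat2 (0.32 ± 0.07), and 3 fell, Cish (-0.48 ± 0.07), Lifr (-0.57 ± 0.10) and Socs2 (-0.27 ± 0.06). A second Socs2 row fell by 1.52 ± 0.17 (adjusted p = 1.45e-04), a larger change than the row used. Stat5a lost its call without CC 2 or DC 2 (highest adjusted p 0.053), Stat2 without CC 3 or CC 4 (0.0561) and Socs2 without CC 1, CC 2, CC 4, DC 3 or DC 4 (0.0864). Of 17 clock genes 4 rose, led by Ciart. It read 8.34, 8.38, 8.42 and 8.53 in CC and 9.40, 9.59, 9.58 and 8.85 in DC (0.93 ± 0.14). The others were Bhlhe41 (0.71 ± 0.15), Per3 (0.44 ± 0.07) and Nr1d1 (0.35 ± 0.09), and Per2 (-0.38 ± 0.08) and Rorb (-0.61 ± 0.09) fell. Nr1d1 lost its call without CC 1 to CC 4, DC 1, DC 3, DC 4 or RC 4 (highest adjusted p 0.118).

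The general machinery of the cell showed few calls. No gene of 35 cytosolic ribosomal proteins (median 0.05) or 31 proteasome subunits (median -0.11) was called, the lowest adjusted p being 0.183 (Rps14, 0.16 ± 0.07) and 0.19 (Psmd14, -0.34 ± 0.14). Of 34 respiratory chain subunits 1 fell, Cyc1 (-0.34 ± 0.09), and of 32 mitochondrial ribosomal proteins 1 fell, Mrpl37 (-0.28 ± 0.08), against 6.13% over all genes. The call of Cyc1 was kept only without CC 4, DC 3 or RC 3 (highest adjusted p otherwise 0.156), and that of Mrpl37 only without DC 1 or RC 3 (0.147). In the citrate cycle list, the NADP-dependent isocitrate dehydrogenase Idh2 (11.34, 11.41, 11.07 and 11.17 in CC and 11.68, 11.92, 11.90 and 11.76 in DC, 0.57 ± 0.08) and pyruvate carboxylase Pcx (0.44 ± 0.08) rose among 22. Of 28 nucleolar genes Bop1 (-0.43 ± 0.09) and Nop56 (-0.27 ± 0.05) fell, Bop1 not without CC 1 or DC 2 (highest adjusted p 0.0535), and 6 fell without DC 1. Of 24 autophagy genes the phosphoinositide binder Wipi1 read 12.05, 12.09, 12.005 and 11.98 in CC and 11.32, 10.97, 11.14 and 10.92 in DC and fell by 0.94 ± 0.09.

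Markers of fibroblasts, endothelium, immune cells, glia, acinar and ductal cells did not pass the test, and some neuronal and progenitor markers did. All 21 measured markers of fibroblasts, endothelium, immune cells and glia were higher in DC than in CC, by 0.02 to 0.22 (median 0.16), and none was called. The median over all genes was 0.06, and 0.11 and 0.10 over classes 2 and 3 of rows by level. Their mean was 7.26, 7.24, 7.40 and 7.40 on CC 1 to CC 4 and 7.35, 7.54, 7.44 and 7.53 on DC 1 to DC 4, with DC 1 below CC 3 and CC 4. No acinar or ductal marker was called, and all 5 endothelial markers read below the median of all values in both groups. Of 24 neuronal and progenitor genes 3 rose, the microtubule proteins Mapt (8.69, 8.80, 8.64 and 8.65 in CC and 9.22, 9.21, 9.14 and 9.12 in DC, 0.47 ± 0.06) and Map2 (0.41 ± 0.09) and Prom1 (0.43 ± 0.11). The 3 falls were the neurotrophin receptor Ngfr (10.10, 9.97, 9.998 and 9.998 in CC and 9.44, 9.45, 9.46 and 9.45 in DC, -0.57 ± 0.06), Dcx (-0.36 ± 0.07) and Cd44 (-0.25 ± 0.07). Prom1 kept its call only without RC 2, RC 3 or RC 4 (highest adjusted p otherwise 0.121). Cd44 kept it when DC 1 or RC 3 was left out and in no other case (0.155). Other rises chosen after their values were seen were the glutathione transferases Gstm1 (9.31, 9.35, 9.16 and 9.04 in CC and 10.43, 10.22, 10.88 and 10.59 in DC, 1.32 ± 0.13) and Gstm3 (0.86 ± 0.08), the cytokine Mif and the imprinted gene Nnat. Mif read 12.03, 12.12, 11.89 and 12.02 in CC and 13.18, 13.21, 13.33 and 12.94 in DC (1.15 ± 0.09). Nnat read 11.04, 11.02, 11.10 and 10.93 in CC and 12.23, 11.90, 12.19 and 12.50 in DC (1.18 ± 0.11).

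Few rows for microRNA genes were called. Of 299 rows, 3 rose (1.0% against 2.31% of all rows) and 2 fell (0.67% against 4.32%), and these rows read the gene's transcript and not the mature microRNA. Mir210, from which the HIF-induced miR-210 is cut, read 9.31, 9.34, 9.59 and 9.62 in CC and 9.73, 10.03, 9.90 and 9.996 in DC, so that DC 1 lay only 0.11 above the highest CC array. The difference was 0.45 ± 0.11 (adjusted p = 0.0345), a call that ended without CC 1, CC 2, DC 2 to DC 4 or RC 2 (highest 0.117). Its mature arms are shown from RefSeq, with the seed (bases 2 to 8) in capitals.
mmu-miR-210-3p, chr7:141221407-141221428, minus strand: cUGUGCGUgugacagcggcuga
mmu-miR-210-5p, chr7:141221445-141221466, minus strand: aGCCACUGcccaccgcacacug
Mir375, the gene of the microRNA typical of islets, read 9.59, 9.62, 9.54 and 9.64 in CC and 10.01, 9.66, 10.02 and 9.84 in DC, a rise of 0.28 ± 0.08 (adjusted p = 0.0491), and Mir26a-1, of a widely expressed family, rose by 0.27 ± 0.07. The falls were Mir670 (-0.59 ± 0.09) and Mir708 (-0.58 ± 0.13). The call of Mir26a-1 ended without CC 1, CC 2, CC 4 or DC 1 to DC 4 (highest adjusted p 0.093). That of Mir375 ended without CC 1 to CC 4, DC 1, DC 3, DC 4, RC 1, RC 2 or RC 4 (highest adjusted p 0.128) and that of Mir708 without CC 2 to CC 4 or DC 2 to DC 4 (0.0614).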

How the data were processed

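Total RNA of 12 Min6 cultures (4 CC, 4 DC, 4 RC) was labelled as biotinylated cDNA and hybridised to Affymetrix Mouse Gene 1.0 ST arrays, per the labels' protocols. The authors deposited 1 value per row and array, read here as log2 intensities from their range. Summarisation and normalization: not given in the sources used here. The number of arrays limits the precision. No further scaling was applied.

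Of 35556 rows, 21789 carried 1 gene symbol in the platform annotation, 1621 several and 12146 none, and 21698 were matched to RefSeq (GRCm38.p6). For each of 19938 genes the row with the highest mean was used. Of 999 genes with several rows, 130 had a called row. All rows were called in 64 of these and had the same sign in 112, and 1 gene was called in both directions. limma 3.58.1 in R 4.3.3 (lmFit, eBayes) was fitted to all 12 arrays with 1 mean per condition. This leaves 9 residual degrees of freedom. Adjustment was by Benjamini-Hochberg over the whole table. The fit was tested on simulated data.

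The comparison and the 63 gene lists were chosen with earlier results of these data known, so no list carries a p of its own. Of 1356 list members 1254 were measured, and the others were not analysed here. The rule for named genes took Ins2 and Hes3 in any case. It took the 12 rows of each direction with the largest change, if they were called, had 1 symbol, did not overlap between groups and had a higher group mean above 7.99. Predicted and clone-named genes, microRNAs, small nucleolar RNAs and olfactory receptors were passed over here. From each list it took at most 4 calls, by size of change, or, with no call, the 2 of smallest p. It also took all calls of lists with 5 or fewer, and members that moved against their list. Not all of these are printed, and other genes were named after their values were seen.

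Samples with the same replicate number did not deviate together (correlations of 0.18, -0.18, -0.31 and 0.38 for numbers 1 to 4), so the numbers were not taken as pairs. Alternatives were the 8 arrays alone, centred arrays, quantile normalization, the interquartile range as a covariate, array weights, a filter on low values, identical rows once, rows with 1 symbol, a replicate block, a trended robust prior, single arrays left out, the 3 arrays of narrowest spread left out, and either pair of CC arrays left out.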

Additional observations from a re-analysis of the deposited data

Results flagged for a closer look

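In 28 of 572 groups of 4 arrays tested (CC and DC, for each gene with values in the text), 1 array stood apart from the other 3 by Dixon's test at its 95% critical value, and chance flags about 1 in 20 groups. The values below are log2, each followed by the lowest and highest of the other 3 arrays of the group. CC 1 stood apart in Gcg at 12.30 (below 12.44 to 12.46) and Grem1 at 11.05 (below 11.08 to 11.09). CC 2 stood apart in Cav1 at 9.11 (below 9.23 to 9.24), Etv4 at 9.24 (above 9.11 to 9.11), Fos at 8.87 (above 8.63 to 8.67), Lpin1 at 9.31 (above 9.12 to 9.14), Mir670 at 9.52 (above 9.36 to 9.38), Slc2a1 at 10.84 (below 10.86 to 10.86) and Vegfb at 10.41 (above 10.33 to 10.34). CC 3 stood apart in Gucy2c at 11.30 (below 11.36 to 11.37). CC 4 stood apart in Dll1 at 7.83 (above 7.62 to 7.64), Mrpl37 at 10.04 (below 10.11 to 10.12) and Slc30a7 at 10.91 (above 10.78 to 10.79). DC 1 stood apart in Ccdc80 at 8.52 (above 7.92 to 7.94), Creld2 at 12.32 (above 11.61 to 11.73), Crem at 8.79 (above 8.17 to 8.25) and Syvn1 at 11.53 (above 11.11 to 11.16). DC 2 stood apart in Alg8 at 11.01 (below 11.41 to 11.48), Calb1 at 7.28 (below 7.59 to 7.63) and Chgb at 12.94 (below 13.03 to 13.04). DC 3 stood apart in Dcx at 11.59 (below 11.73 to 11.76), Etv4 at 8.07 (below 8.37 to 8.41), Gabra3 at 9.62 (above 9.15 to 9.22) and Lifr at 9.64 (above 9.44 to 9.45). DC 4 stood apart in Dll1 at 8.30 (above 8.01 to 8.06), Ier3 at 8.64 (below 9.22 to 9.25), Lss at 10.46 (below 10.80 to 10.87) and Mylip at 9.46 (below 9.80 to 9.85).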

How the results depend on the processing

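None of the 198 called genes chosen by the rule changed direction under any alternative that tested it. Changes of sign in genes that were not called, or that were named after their values were seen, were not counted. Rows that differ numbered 2360, 4840 with array weights, 1568 and 991 against CC 1 and CC 2 or CC 3 and CC 4 alone, and 1549 to 3718 with single arrays left out. Rows higher in DC (823) numbered 502 with centred arrays, 1843 with array weights, 460 and 352 against those pairs, and 519 to 1342 with single arrays left out. Rows lower (1537) numbered 2997 with array weights, 639 against CC 3 and CC 4, and 1011 to 2376 with single arrays left out. Hypoxia-induced growth and stress regulators rose in 8 cases against CC 1 and CC 2, and ERK feedback genes fell in 4 against CC 3 and CC 4. Cell cycle genes fell in 4 cases with the interquartile range as a covariate, 2 against CC 3 and CC 4, and 4 to 11 with single arrays left out. Against the 2 pairs, falls numbered 3 and 1 in zinc genes, 3 and 2 in laminins and integrins, 3 and 3 in amino acid transporters, 5 and 2 in chaperones and 3 and 2 in the unfolded protein response. Amino acid transporters fell in 10 cases with centred arrays and 11 with array weights. Chaperones fell in 6 cases with the interquartile range as a covariate, 17 with array weights, 5 without DC 2, DC 4 and RC 3, and 5 to 12 with single arrays left out. Unfolded protein response genes fell in 3 cases without DC 2, DC 4 and RC 3, and 5 to 10 with single arrays left out. Setting DC against a pair of CC arrays leaves fewer samples; the other causes were not tested.

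With the replicate block, 595 rows rose and 1257 fell, and 181 of the 198 called genes chosen by the rule were still called. Of the 198, 160 were called with every single array left out, 182 with centred arrays, 191 with quantile normalization, 187 with the interquartile range as a covariate, 141 against CC 1 and CC 2 and 126 against CC 3 and CC 4. Signal limits what dim rows can show: the filter on low values took 6 of these 198 genes out of the test, among them Fn1, Akr1c19, P4ha3 and Nr4a3. Centring moved the median difference of all rows from 0.05 to -0.01.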
